A study of Mus musculus with 10 samples.

Results

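A set of 9 transcription regulators that set the fate of activated CD4 T cells were followed in cultures of mouse T helper cells: Bcl6, Prdm1, Tcf7, Lef1, Bach2, Id2, Id3, Tox and Satb1. They were chosen by name, as regulators of follicular, memory and effector fate, and not by their values. A probe set with a single gene symbol was found for 8 of the 9, out of 22180 genes measured in this way. Each of the 8 had 1 such probe set. Tcf7 had none in the platform's probe-to-gene table, so it was not analysed here.

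The arrays held RNA of CD4-positive lymphocytes isolated from spleens of wild-type female Balb/c mice, 10 to 14 weeks old. All cultures were stimulated through CD3 (antibody at 4 µg/ml) and CD28 (antibody at 30 ng/ml), and medium was renewed after 72 h. Th0 cultures (n = 3) received nothing else and were the control. IL-4 (100 ng/ml) was added to Th2 cultures (n = 3), and IL-6 (20 ng/ml), TGFβ (5 ng/ml) and IL-23 (10 ng/ml) to Th17 cultures (n = 4). Th2 and Th17 cultures, but not Th0 cultures, contained an antibody against IFNγ at 10 µg/ml, so its effect and that of the cytokines cannot be told apart in a comparison with Th0. Each sample was 1 array. The samples are called biological replicates, but no source used here says whether each came from its own mouse, so the p-values measure only how these samples spread, which may be technical.

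Bcl6 and Blimp-1, the protein made from Prdm1, are repressors that oppose each other: Bcl6 directs the follicular helper fate, and Blimp-1 directs effector differentiation. TCF-1 (from Tcf7) and LEF-1 are related HMG-box factors that hold T cells in a resting or self-renewing state and favour follicular helper cells. Bach2 restrains effector genes, pairing with small Maf proteins at sites that AP-1 factors also use. Id2 and Id3 lack a DNA-binding domain and act by binding E proteins and keeping them from E-box sites, with Id2 tied to effector and Id3 to memory and follicular cells. Tox is an HMG-box protein needed for the CD4 lineage in the thymus, and Satb1 organises chromatin in T cells.

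The RefSeq promoter table (build GRCm38.p6, the C57BL/6J reference) held windows for 8 of the 9 genes, all but Tox. The windows of 3 genes are printed because Bach2 and Id2 were the members whose Th17 and Th0 arrays did not overlap, and Prdm1 varied with Id2. Each is the 250 bases before the most upstream start in the table, written on the strand of the gene. Capitals mark matches on either strand to 4 short motifs: the E-box CANNTG, the TCF/LEF core TCAAAG, the Bach and AP-1 core TGANTCA, and the Blimp-1 core GTGAAAG. No match overlapped another here.
Bach2, chr4:32417185-32417434, plus strand: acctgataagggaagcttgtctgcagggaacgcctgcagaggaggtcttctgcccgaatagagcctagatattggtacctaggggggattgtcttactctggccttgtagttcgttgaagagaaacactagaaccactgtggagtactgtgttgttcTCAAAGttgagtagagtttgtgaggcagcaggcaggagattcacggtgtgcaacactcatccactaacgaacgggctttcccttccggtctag
Id2, chr12:25096093-25096342, minus strand: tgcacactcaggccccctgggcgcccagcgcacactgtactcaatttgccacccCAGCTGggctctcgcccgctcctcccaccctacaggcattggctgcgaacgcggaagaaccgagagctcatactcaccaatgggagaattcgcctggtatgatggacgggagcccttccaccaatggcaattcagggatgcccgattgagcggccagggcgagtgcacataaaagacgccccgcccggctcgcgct
Prdm1, chr10:44458749-44458998, minus strand: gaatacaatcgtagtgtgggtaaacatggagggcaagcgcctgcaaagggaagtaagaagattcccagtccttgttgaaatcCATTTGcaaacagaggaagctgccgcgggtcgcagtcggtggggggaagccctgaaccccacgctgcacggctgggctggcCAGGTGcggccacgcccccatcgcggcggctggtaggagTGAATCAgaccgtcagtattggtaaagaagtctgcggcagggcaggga

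The Bach2 window held 1 TCF/LEF core, beginning 93 bases before the start. The Id2 window held 1 E-box (196 bases before the start), and the Prdm1 window 2 E-boxes (168 and 87 bases before it) and 1 TGANTCA match (48 bases before it). None of the 3 windows held the Blimp-1 core. Of all 32851 windows of this length in the table, 66.2% held an E-box, 13.8% the TCF/LEF core, 6.75% the Bach and AP-1 core and 3.57% the Blimp-1 core. These matches describe the letters in the windows and say nothing of binding in these cells.

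Values are log2 expression after RMA, so a difference of 1 is a 2-fold difference. Marker genes set the Th17 cultures apart: Il17f ranged from 9.55 to 10.94 in them and was at 6.66 or below elsewhere. Gata3 was at 6.21 or below on the Th17 arrays and 7.14 or above elsewhere. Th2 was less clearly apart from Th0. Mean Gata3 was 7.52 in Th2 and 7.75 in Th0 cultures, and Il4 (8.98 and 8.27) and Il13 (10.07 and 9.81) overlapped between them. Il5 was higher in Th2 without overlap (6.27 and 4.98; limma, adjusted p = 0.767). Mean Ifng was 7.85 in Th0, 9.27 in Th2 and 9.46 in Th17 cultures, and Th0 overlapped both others. The T cell genes Cd3e (9.36 to 10.44) and Cd4 (7.09 to 8.76) were expressed on all 10 arrays. Of 11 B cell markers, Ighm, the heavy chain of IgM, ranged from 4.71 to 10.41, the class II gene H2-Ab1 from 4.43 to 6.59, Blk up to 4.87 and Cd79b up to 4.78. The B cell regulator Pax5 was 3.19 to 4.00 and Ms4a1, which encodes CD20, 2.61 to 3.23, where the median of all probe sets on an array was 3.39 to 3.61. There were 3 arrays that stood apart on the first principal component of all genes (35.8% of the variance): Th2 replicates 2 and 3 and Th17 replicate 4, at 37.5 to 55.8 against -0.96 or below on the other 7. Mean expression of 17 cell cycle genes was 6.25 to 6.67 on those 3 arrays and 6.46 to 7.97 on the others, and Cd4 was 7.23 or below on them and 7.96 or above on the others. Basophil and mast cell markers were highest on Th0 replicate 1 and Th17 replicates 2 and 3, with means of 5.58 to 6.91 against 4.24 or less elsewhere.

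None of the 8 factors passed the test in any of the 3 comparisons (limma, Benjamini-Hochberg over 22180 genes, threshold 0.05). Of all genes, 0% were called in Th2 against Th0, 0.104% in Th17 against Th0 and 0.0766% in Th17 against Th2, where 1407, 1146 and 1386 genes had an unadjusted p under 0.05. An unadjusted p under 0.05 was reached by 1 of the 8 in Th2 against Th0 (Id3), by 2 in Th17 against Th0 (Bach2 and Id2) and by 1 in Th17 against Th2 (Bach2). A test for any difference among the 3 groups (limma's moderated F test) called 0.0631% of all genes and none of the 8, with 1 (Bach2) at an unadjusted p under 0.05. In this bulk RNA, a change in the number of cells that make a transcript and a change in the amount per cell cannot be told apart.

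**Figure D1:**
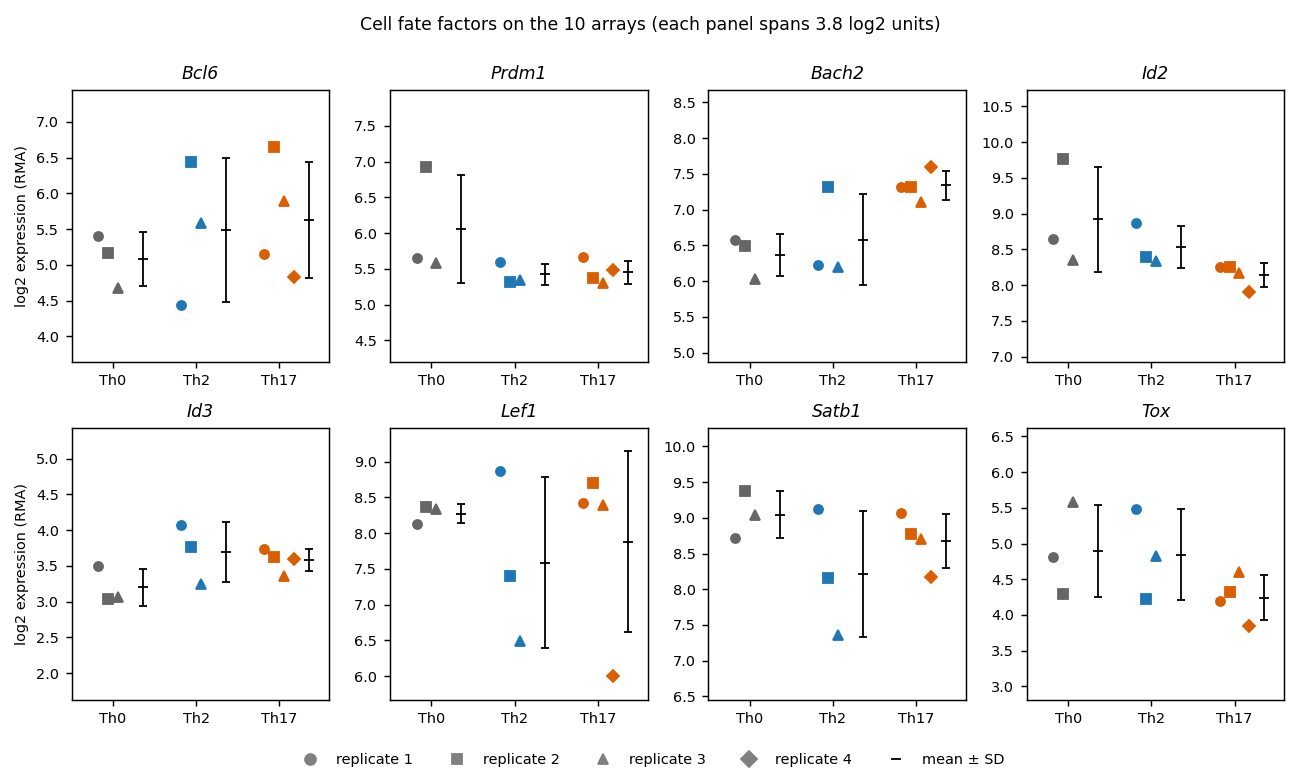
Log2 expression (RMA) of the 8 measured factors on each of the 10 arrays, with grey points for Th0, blue for Th2 and orange for Th17, a symbol for each replicate number, and bars for the mean ± SD of each group. The 4 Th17 arrays of Bach2 lie above its 3 Th0 arrays, and Th0 replicate 2 stands above the other arrays for Prdm1 and Id2.

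Bach2, the repressor that restrains effector differentiation, had the largest difference of the 8 between Th17 and Th0 cultures. Its values were 7.32, 7.32, 7.11 and 7.60 on Th17 replicates 1 to 4, 6.58, 6.50 and 6.03 on Th0 replicates 1 to 3, and 6.22, 7.31 and 6.20 on Th2 replicates 1 to 3. All Th17 arrays were above all Th0 arrays, and Th2 replicate 2 lay among the Th17 values while the other Th2 arrays lay among the Th0 values. The means were 6.37 ± 0.29 (SD, n = 3) in Th0, 6.58 ± 0.64 (SD, n = 3) in Th2 and 7.34 ± 0.20 (SD, n = 4) in Th17 cells. The Th17 level was 1.96-fold that of Th0, a difference of 0.97 ± 0.27 (SE, 95% interval 0.38 to 1.56), which did not pass over all genes (limma, adjusted p = 0.563). Th17 exceeded Th2 by 0.76 ± 0.27 (SE, 95% interval 0.17 to 1.35; limma, adjusted p = 0.653), and Th2 exceeded Th0 by 0.21 ± 0.29, less than its error. Intervals are for single genes and are not adjusted for the number tested.

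The excess of Bach2 in Th17 over Th0 cultures kept its direction under all 20 alternatives tried, from 0.50 to 1.20, with adjusted p between 0.127 and 1. The smallest of these came from a second probe set, which the table gives jointly to Bach2 and its antisense gene Bach2os. That probe set read 7.09, 6.43 and 6.30 on the Th0 arrays in order, and 7.34, 6.74, 6.65 and 7.66 on the Th17 arrays. Its groups overlapped, and its difference of 0.50 ± 0.30 (SE) compares with 0.97 for the probe set of Bach2 alone. Which of the gene and its antisense partner it measured cannot be told apart. Bach2 is also a B cell gene. The mean of 11 B cell markers ran from 3.45 to 4.28 on the Th17 arrays and from 3.72 to 4.29 on the Th0 arrays, with the highest value of Th17 on replicate 1 (Bach2 at 7.32, Ighm at 10.41) and the lowest on replicate 4 (Bach2 at 7.60, Ighm at 4.71). The part of B cells in the Bach2 values was not tested.

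Id2, the E protein antagonist tied to effector cells, ran the other way. It was at 8.64, 9.76 and 8.36 on Th0 replicates 1 to 3, at 8.86, 8.39 and 8.33 on Th2 replicates 1 to 3, and at 8.25, 8.25, 8.17 and 7.90 on Th17 replicates 1 to 4. Every Th17 array was below every Th0 and every Th2 array, though the highest Th17 value was close to the lowest Th2 value. The mean was 8.92 ± 0.74 (SD, n = 3) in Th0, 8.53 ± 0.29 (SD, n = 3) in Th2 and 8.14 ± 0.17 (SD, n = 4) in Th17 cells. The difference of Th17 from Th0 was -0.77 ± 0.29 (SE, 95% interval -1.42 to -0.13; limma, adjusted p = 0.879). Without Th0 replicate 2, the array with the highest Id2, it was -0.35 (adjusted p = 0.957). Th17 differed from Th2 by -0.38 ± 0.29 (adjusted p = 0.936) and Th2 from Th0 by -0.39 ± 0.31 (adjusted p = 0.864). Neither was beyond 2 standard errors, and the difference of Th2 from Th0 was 0.031 without Th0 replicate 2.

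Bach2 and Id2 were the 2 of the 8 factors whose Th17 and Th0 arrays did not overlap, where 7.57% of all genes did not. Id2 was the 1 factor without overlap between Th17 and Th2 (5.6% of all genes), and 0 of the 8 were without overlap between Th2 and Th0 (8.43% of all genes).

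**Figure D2:**
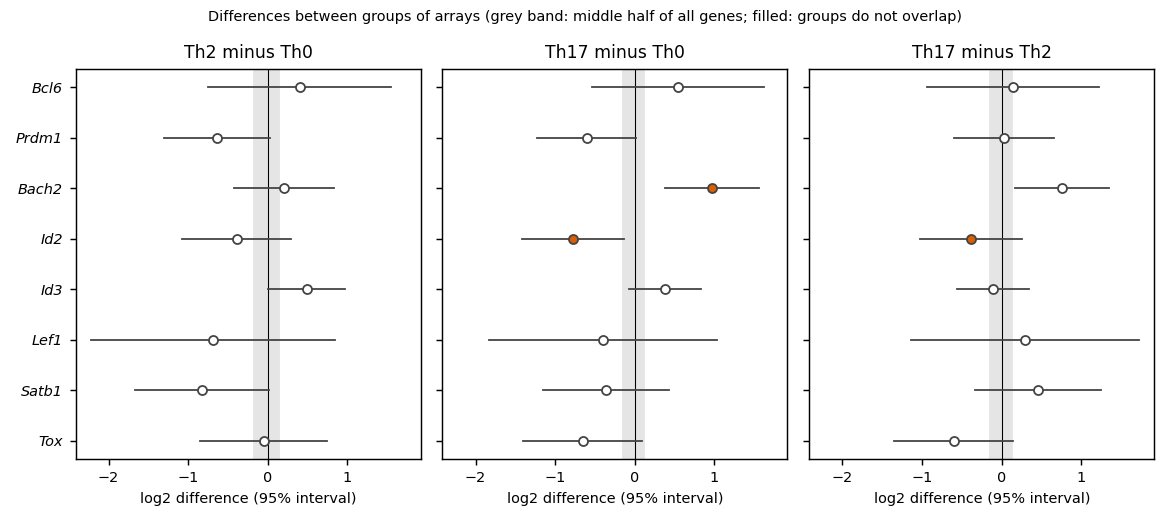
Log2 differences between group means with 95% intervals for the 8 factors in each of the 3 comparisons, filled where the 2 groups do not overlap, with a grey band for the interquartile range of all genes. The intervals of Bach2 (0.38 to 1.56) and Id2 (-1.42 to -0.13) in Th17 minus Th0 leave out 0, and most others span it.

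Bcl6, the follicular regulator, varied more within the polarised groups than between groups. It was at 5.41, 5.17 and 4.67 on Th0 replicates 1 to 3, at 4.43, 6.44 and 5.58 on Th2 replicates 1 to 3 and at 5.15, 6.65, 5.89 and 4.84 on Th17 replicates 1 to 4. The lowest array of all was a Th2 array and the highest a Th17 array, and the 3 groups overlapped. The order of the means was Th0 (5.08 ± 0.37 SD, n = 3), Th2 (5.48 ± 1.01 SD, n = 3) and Th17 (5.63 ± 0.81 SD, n = 4), with no neighbours separated beyond their spread. Th17 differed from Th0 by 0.55 ± 0.49 (SE, 95% interval -0.53 to 1.63; limma, adjusted p = 0.999), by 0.21 without Th17 replicate 2 and by 0.074 without the 3 arrays with most basophil-marker signal. Bcl6 was highest of its group on Th0 replicate 1 and on Th17 replicates 2 and 3, which are those arrays. Among Th2 arrays it was highest on replicate 2 (6.44), where basophil and mast cell markers averaged 3.15. It was lowest on Th2 replicate 1 (4.43), where they averaged 4.10. The part of basophils and mast cells in the Bcl6 values was not tested. Without Th2 replicate 2 the difference of Th2 from Th0 was -0.077. The interval for Th2 against Th0 was -0.75 to 1.56, so an excess over Th0 of more than 2-fold in either comparison was within what these arrays allow.

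Prdm1, which encodes Blimp-1, was set apart by a single control array. It was at 5.66, 6.93 and 5.58 on Th0 replicates 1 to 3, at 5.60, 5.32 and 5.35 on Th2 replicates 1 to 3 and at 5.66, 5.37, 5.30 and 5.48 on Th17 replicates 1 to 4. The other 9 arrays lay between 5.30 and 5.66. The mean was 6.06 ± 0.76 (SD, n = 3) in Th0, 5.42 ± 0.15 (SD, n = 3) in Th2 and 5.45 ± 0.16 (SD, n = 4) in Th17 cells. The differences from Th0 were -0.64 ± 0.30 (SE) for Th2 (limma, adjusted p = 0.794) and -0.60 ± 0.28 (SE) for Th17 (limma, adjusted p = 0.972). Without Th0 replicate 2 they were -0.20 and -0.17. Th17 and Th2 differed by 0.03 ± 0.28 (SE, 95% interval -0.59 to 0.66).

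On Th0 replicate 2, some genes of other lymphocytes were also high. Cd8b1 and Cd8a, the chains of the CD8 coreceptor, were at 7.21 and 5.63 there and at 5.96 or less and 4.88 or less on the other 9 arrays. The mean of 7 markers of CD8 and natural killer cells was 4.615 there, less than for Th17 replicates 2 (4.677) and 3 (4.827). Of the 7, Klrd1 was at 4.85 there and at 5.84 to 7.17 in Th17 cultures. Eomes was at 4.82 there and reached 7.28 in Th0 replicate 1. Ighm was at 9.68 on Th0 replicate 2. It was higher on Th17 replicate 1 (10.41), where Prdm1 was at 5.66. The mean of 5 plasma cell markers was 4.96 on Th0 replicate 2 and 5.18 on Th17 replicate 1, and 4.35 or less elsewhere. Of the 5, Jchain (5.15 and 6.78) and Mzb1 (5.33 and 4.43) were highest on these arrays. On Th0 replicate 2, Sdc1 was at 3.22, its lowest of the 10 arrays, and Tnfrsf17 at 2.71. Xbp1 was at 8.39 there and higher on Th0 replicate 3 (8.60) and Th2 replicate 1 (8.69). The part of these cells in the Prdm1 and Id2 values was not tested.

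Id3, the other E protein antagonist, had low values near the median of all probe sets, a range in which RMA compresses differences. It was at 3.50, 3.03 and 3.07 on Th0, 4.07, 3.77 and 3.24 on Th2 and 3.74, 3.63, 3.36 and 3.60 on Th17 replicates in order. The groups overlapped, with 2 Th0 arrays lowest of all. Its mean was 3.69 ± 0.42 (SD, n = 3) in Th2 cells, against 3.58 ± 0.16 (SD, n = 4) for Th17 cells and 3.20 ± 0.26 (SD, n = 3) in Th0 cells. Th2 exceeded Th0 by 0.49 ± 0.22 (SE; limma, adjusted p = 0.785) and Th17 exceeded Th0 by 0.38 ± 0.21 (SE; limma, adjusted p = 0.999). The means of Id2 were thus highest, and those of Id3 lowest, in Th0 cells, with none of these differences past the test. The order of Id2 rested on Th0 replicate 2, without which Th2 exceeded Th0 by 0.031.

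Lef1, the HMG-box factor of resting T cells, was steady on most arrays and low on 3. It was at 8.12, 8.37 and 8.33 on Th0 replicates 1 to 3, at 8.87, 7.41 and 6.49 on Th2 replicates 1 to 3 and at 8.42, 8.70, 8.40 and 6.0 on Th17 replicates 1 to 4. The low arrays were the 3 that stood apart on the first component: Lef1 was 6.0 to 7.41 on them and 8.12 to 8.87 on the other 7. The group means were 8.27 ± 0.13 (SD, n = 3) in Th0, 7.59 ± 1.20 (SD, n = 3) in Th2 and 7.88 ± 1.26 (SD, n = 4) in Th17 cells. The difference from Th0 was -0.69 ± 0.70 (SE) in Th2 (limma, adjusted p = 0.898) and -0.39 ± 0.65 (SE) in Th17 (limma, adjusted p = 0.999). Without the 3 arrays apart both turned, to 0.59 (resting on Th2 replicate 1 alone) and 0.23.

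Satb1, the chromatin organiser, followed the same arrays. It was at 8.71, 9.37 and 9.03 on Th0 replicates 1 to 3, at 9.12, 8.16 and 7.36 on Th2 replicates 1 to 3 and at 9.07, 8.77, 8.71 and 8.16 on Th17 replicates 1 to 4. Its values on the 3 arrays apart (7.36 to 8.16) lay below those on the other 7 (8.71 to 9.37). Lef1 and Satb1 were the 2 of the 8 factors separated in this way, as were 9.86% of all genes, which is a description since the component was computed from the same genes. The mean of Satb1 was 8.22 ± 0.88 (SD, n = 3) in Th2 cells, against 8.68 ± 0.38 (SD, n = 4) for Th17 cells and 9.04 ± 0.33 (SD, n = 3) in Th0 cells. Th2 differed from Th0 by -0.82 ± 0.38 (SE, 95% interval -1.67 to 0.02; limma, adjusted p = 0.793), and by 0.08 without the 3 arrays apart. Cd4 was also lower on those 3 arrays than on the others. The cell cycle mean was lowest on Th2 replicates 2 and 3 (6.34 and 6.25). It was 6.67 on Th17 replicate 4 and 6.46 on Th17 replicate 2, where Lef1 was at 8.70. The part of either signal in the Lef1 and Satb1 values was not tested.

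Tox was at 4.81, 4.30 and 5.58 on Th0 replicates 1 to 3, at 5.49, 4.22 and 4.82 on Th2 replicates 1 to 3 and at 4.20, 4.31, 4.61 and 3.85 on Th17 replicates 1 to 4. The Th17 arrays lay at the low end, overlapping both other groups. Its mean was 4.24 ± 0.32 (SD, n = 4) in Th17, 4.84 ± 0.64 (SD, n = 3) in Th2 and 4.90 ± 0.65 (SD, n = 3) in Th0 cells. Th17 differed from Th0 by -0.65 ± 0.34 (SE; limma, adjusted p = 0.999) and from Th2 by -0.60 ± 0.34 (SE; limma, adjusted p = 0.894). Both kept their sign under the 19 alternatives tried for Tox, from -0.95 to -0.31 against Th0 (-0.31 without Th0 replicate 3) and from -1.12 to -0.17 against Th2. The latter was -0.28 without Th2 replicate 1 and -0.92 without Th2 replicate 2.

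How the factors varied with one another was examined over the 10 arrays in 28 pairs, with two-sided permutation tests adjusted over the pairs. Values were shuffled over all 10 arrays without regard to group, so these p-values treat the arrays as exchangeable and include differences between groups. In all, 1 pair passed by Pearson's r and none by Spearman's rho, and 3 had an unadjusted p under 0.05. Bach2 and Tox ran in opposite directions (r = -0.859, permutation p = 0.00142, adjusted p = 0.0398; rho = -0.855, permutation p = 0.00282, adjusted p = 0.0790). Their relation was -0.750 without the 2 arrays farthest from the median of Bach2 (Th0 replicate 3 and Th17 replicate 4), -0.828 on the 7 arrays that did not stand apart and -0.817 for deviations from the group means. Of all genes, 0.0586% were as strongly opposed to Bach2 or more so.

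Lef1 and Satb1 varied together (r = 0.826, permutation p = 0.00478, adjusted p = 0.0669; rho = 0.721, permutation p = 0.0241, adjusted p = 0.225). On the 7 arrays that did not stand apart their r was 0.177, so the relation rests on the other 3. Of all genes, 2.94% were as close to Lef1. Prdm1 and Id2 had an r of 0.885 (permutation p = 0.0155, adjusted p = 0.145; rho = 0.479, permutation p = 0.167, adjusted p = 0.558). Without the 2 arrays farthest from the median of Prdm1, 1 of them Th0 replicate 2, it was 0.336, so this relation rests on those arrays. Bcl6 and Prdm1, the opposed pair, had an r of -0.322 (permutation p = 0.397, adjusted p = 0.793; rho = -0.576, permutation p = 0.0885, adjusted p = 0.496).

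**Figure D3:**
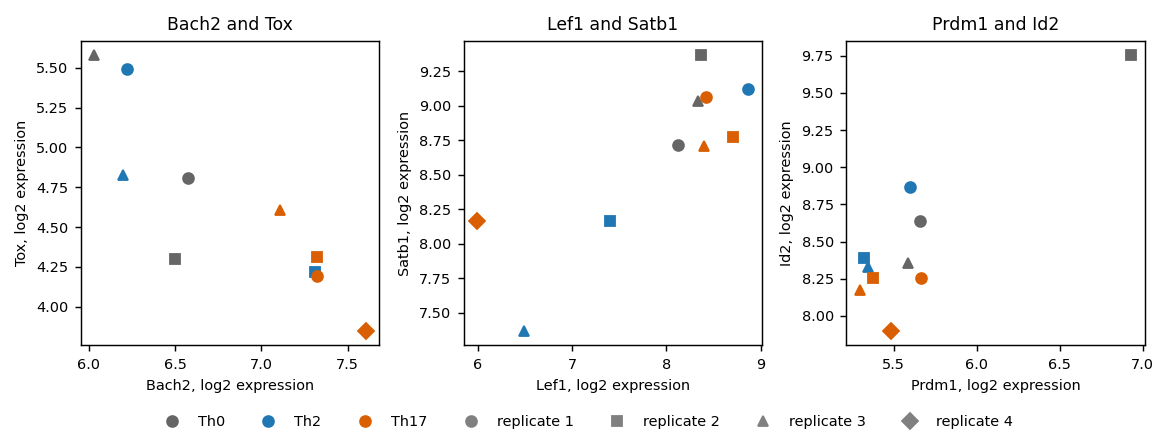
Log2 expression of Tox against Bach2, Satb1 against Lef1 and Id2 against Prdm1 on the 10 arrays, with colours for groups and symbols for replicate numbers. Tox falls along Bach2 across all 3 groups (r = -0.859), 3 arrays carry the relation of Lef1 with Satb1, and Th0 replicate 2 stands alone at the upper right for Prdm1 and Id2.

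The genes whose values over the 10 arrays were most like each factor were picked by Pearson's r and are given as a description, since the best of 22179 genes is high by selection. For Bcl6 these were Cxcr1 (0.964), Gpc4 (0.933) and Car2 (0.926), and for Prdm1 Aldoc (0.943), Dnase1l3 (0.938) and Ndufaf7 (0.932). Those of Lef1 were Asxl2 (0.975), Gtf2i (0.971) and Ankrd11 (0.971), and those of Satb1 were Setd5 (0.983), Ccm2 (0.976) and Gfus (0.968). Bach2 was most like Sestd1 (0.953), Zc3h12c (0.928) and Tst (0.920), and Id2 most like Aplp1 (0.952), Prxl2a (0.918) and Slc35c2 (0.916). Tox was most like Hibch (0.934), Ndufa12 (0.910) and Slc2a8 (0.909). Id3 had the lowest values of the 8, led by Wdcp (0.879), Smad1 (0.879) and Hectd2 (0.863).

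Genes that act with these factors were read from the same fit. Of 20 genes associated with follicular helper cells none was called in any comparison. In Th2 against Th0, Th17 against Th0 and Th17 against Th2, 5, 5 and 7 had an unadjusted p under 0.05. Of all 22180 genes, 1407, 1146 and 1386 had such a p, the background for this list and those below. Their median difference was 0.22 in Th17 against Th0 (13 higher, 7 lower), 0.12 in Th2 against Th0 and 0.04 in Th17 against Th2, where the medians of all genes lay between -0.02 and -0.01. Il21, the cytokine of follicular helper and Th17 cells, was at 9.73, 9.13, 9.22 and 10.22 on Th17 replicates 1 to 4, at 5.98, 8.52 and 5.22 on Th0 and at 5.97, 6.91 and 7.24 on Th2 replicates in order. The Th17 arrays were all above the others, a difference of 3.00 ± 0.65 (SE) from Th0 that missed the threshold (limma, adjusted p = 0.236). Without Th0 replicate 2, the highest of the Th0 arrays, it was 3.98 and passed (adjusted p = 0.0162), as under no other alternative. Maf, a transcription factor that drives Il21, was 2.63 ± 0.49 (SE) above Th2 in Th17 cells without overlap (limma, adjusted p = 0.113), and 1.36 above Th0 (adjusted p = 0.839). Against Th2 it passed in 2 of 19 alternatives, with array weights (adjusted p = 0.0105) and without Th2 replicate 1 (0.0296). Array weights counted Th2 replicate 2 at 2.25 and Th2 replicates 1 and 3 at 0.432 and 0.516. With them 330 genes were called in Th17 against Th2, where the main fit called 17. Il4, made by follicular helper and Th2 cells, was 1.81 below Th2 in Th17 cells (limma, adjusted p = 0.241). Of 19 alternatives it passed only with array weights (adjusted p = 0.0325). Cxcr5, the receptor that brings T cells into B cell follicles, stayed between 2.67 and 3.98 on the 10 arrays. In Th2 against Th0, the smallest p-values belonged to Tnfsf8 (CD30 ligand), 1.29 higher, and Cd40lg (CD40 ligand), 1.78 higher (limma, adjusted p = 0.767 each). Both were highest on Th2 replicates 2 and 3, which stood apart. Without the 3 arrays apart the differences were 0.38 for Tnfsf8 and 0.31 for Cd40lg. Without Th2 replicate 1 they were 1.75 and 2.51 and passed (adjusted p = 0.0231 and 0.0349), as under no other alternative.

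Of 20 genes of memory and resting T cells, 19 were measured and none was called, with 1, 5 and 9 at an unadjusted p under 0.05 in the same order. Their median difference was 0.86 in Th17 against Th2 (15 higher, 4 lower), 0.43 in Th17 against Th0 (10 higher, 9 lower) and -0.33 in Th2 against Th0 (5 higher, 14 lower). The mean of the 19 genes was 5.44 to 5.81 on the 3 arrays apart, which include 2 of the 3 Th2 arrays, and 6.20 to 7.11 on the other 7. Klf2, S1pr1, Bcl2, Eomes, Txk and Myb, 6 of the 19, were each lower on all 3 of those arrays than on any other. So were 3 of the 20 follicular helper genes. Among the lists below, so were 1 of 18 effector genes, 4 of 13 partners and 0 of 9 paralogs. Of all genes, 9.86% lay wholly below or wholly above on those arrays. This is a description, since the component was computed from the same genes. Without the 3 arrays apart the medians were 0.54, 0.79 and 0.27, so that of Th2 against Th0 turned, resting on Th2 replicate 1 alone. Without the 3 arrays with most basophil-marker signal the median of Th17 against Th0 turned to -0.23. In that setting it was 0.31 in Th17 against Th2 (12 higher, 7 lower) and -0.38 in Th2 against Th0. Ccr7, the receptor for homing to lymph nodes, was at 8.85, 8.91, 8.93 and 8.70 on Th17 replicates 1 to 4, at 7.83, 7.97 and 8.0 on Th0 and at 8.11, 7.39 and 7.03 on Th2 replicates in order. Every Th17 array was above every other array. The difference was 1.34 ± 0.22 (SE) from Th2 (limma, adjusted p = 0.0703) and 0.91 ± 0.22 (SE) from Th0 (limma, adjusted p = 0.372). Ccr7 passed under 3 of 19 alternatives in each comparison. In both it passed with array weights (adjusted p = 0.00323 against Th2 and 0.0447 against Th0) and without Th2 replicate 1 (0.00418 and 0.0427). It also passed against Th0 without the 3 arrays apart (0.0392) and against Th2 with values normalized again (0.0191). Without the 3 arrays apart its difference from Th2, then a single array, was 0.79 (adjusted p = 0.399). Foxo1, which drives Ccr7 and other homing genes, was 0.79 ± 0.14 (SE) above Th0 (limma, adjusted p = 0.0838) and 0.63 ± 0.14 (SE) above Th2 (adjusted p = 0.241). It passed with array weights in both (adjusted p = 0.0384 and 0.0459) and under no other alternative. Myb, a factor of memory T cells, was 1.57 below Th0 in Th2 cells (adjusted p = 0.767) and 0.019 above it without the 3 arrays apart. Without Th2 replicate 1 it was 2.37 below and passed (adjusted p = 0.0232), as under no other alternative.

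Of 20 effector genes, 18 were measured and none was called (2, 4 and 3 at an unadjusted p under 0.05), with medians of 0.12, 0.22 and 0.18 in Th2 against Th0, Th17 against Th0 and Th17 against Th2. In Th17 against Th0 cells, Ccl5, an effector chemokine, was 1.36 higher (limma, adjusted p = 0.656) and Gzmk, granzyme K, 0.92 higher (adjusted p = 0.899). In Th2 against Th0 cells, Lag3, an inhibitory receptor, was 1.05 lower and Nkg7, a cytotoxic granule protein, 1.07 lower (limma, adjusted p = 0.767 each). Lag3 was 0.59 lower without Th0 replicate 2, and Nkg7 0.50 lower without Th0 replicate 1. The list's median in this comparison was -0.10 without the 3 arrays apart. Without them it was 0.09 in Th17 against Th0 and 0.40 in Th17 against Th2 (15 higher, 3 lower). Without the 3 arrays with most basophil-marker signal the 3 medians were 0.06, 0.02 and 0.09 in the order above. In Th17 against Th2 cells, Fasl, the death ligand, was 1.44 lower (adjusted p = 0.464) and 0.81 lower without Th2 replicate 2. Fasl passed only with array weights (adjusted p = 0.0239), which favour that array. Bhlhe40, a factor of effector cytokine production, was 0.55 higher (adjusted p = 0.689). Gzmb, granzyme B, was highest on Th0 replicate 2 (10.36), the array with the most Prdm1 and Id2.

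Neither the paralogs nor the partners of the factors were called: 0 of 9 measured paralogs and 0 of 13 measured partners in each comparison by limma. An unadjusted p under 0.05 was reached by 1 paralog in each comparison and by 2, 1 and 2 partners. Most paralogs had low values, Id4 at 2.54 to 3.01 and Bcl6b at 2.54 to 3.21. Tox2, which favours follicular helper cells, was 0.41 ± 0.19 (SE) above Th0 and 0.45 ± 0.19 (SE) above Th2 in Th17 cells (limma, adjusted p = 0.966 and 0.736). Its lowest Th17 array (4.247) was barely above the highest Th0 (4.246) and Th2 (4.209) arrays. Tox, in contrast, was lower in Th17 cells. Bach1 was 0.56 and Tox4 0.43 above Th0 in Th2 cells (limma, adjusted p = 0.784 and 0.819). Tcf7l1 was 0.20 below Th0 and Id4 0.27 below Th2 in Th17 cells (adjusted p = 0.999 and 0.851).

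Among the partners, Tle4, a corepressor of TCF and LEF factors, was at 5.63, 6.03 and 5.69 on Th2 replicates 1 to 3 and at 5.34 or less on the other 7 arrays. It was 0.85 ± 0.20 (SE) above Th0 in Th2 cells (limma, adjusted p = 0.767) and 0.86 ± 0.19 (SE) lower in Th17 than in Th2 cells (limma, adjusted p = 0.231). With array weights the second passed (adjusted p = 0.0326), as under no other alternative. Maff, a small Maf partner of Bach factors, was 0.50 above Th0 in Th2 cells and 0.52 lower in Th17 than in Th2 cells (adjusted p = 0.777 and 0.693). Tle1, another corepressor, was 0.75 above Th0 in Th17 cells and Ctnnb1, beta-catenin, 0.30 above it (adjusted p = 0.913 and 0.999).

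**Figure D4:**
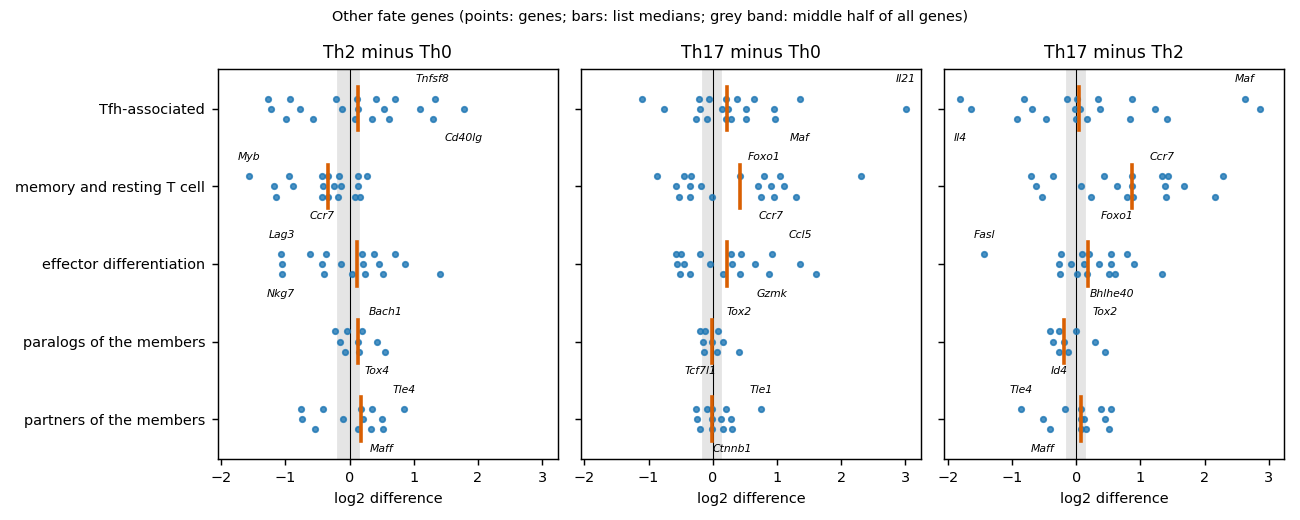
Log2 differences in the 3 comparisons for 5 lists of other fate genes, with a point for each gene, a bar for the list median, a grey band for the interquartile range of all genes and names for the 2 genes with the smallest p. The median of memory and resting T cell genes lies at 0.86 in Th17 minus Th2 and at -0.33 in Th2 minus Th0. These medians are 0.54 and 0.27 without the 3 arrays apart, and 0.31 and -0.38 without the 3 arrays with most basophil-marker signal. No gene shown passed the test.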

How the data were processed

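The values, as deposited, are log2 intensities that the authors computed with RMA in Affymetrix Expression Console 1.3.0.187, per the submitters' processing notes. Quantile normalization in RMA hides changes in total RNA per cell. No source used here gives the genome build of the annotation. Per the labels' protocols, RNA was amplified with a kit for small amounts and labelled with biotin.

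Of 41345 probe sets, 23521 had exactly 1 gene symbol. The one with the highest mean over 10 arrays stood for each of 22180 genes, with no filter on low values. Group means for Th0, Th2 and Th17 were fitted over all 10 arrays (limma 3.58.1 in R 4.3.3, lmFit and eBayes, 7 residual degrees of freedom). P-values are two-sided and Benjamini-Hochberg adjusted over all genes of a comparison. The code was checked on simulated data. The number of arrays limits the precision.

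Pairs were tested with 100000 permutations. With Tcf7 missing, 28 pairs replaced the intended 36. Named genes are the 8 measured factors, the 2 genes with the smallest p per list and comparison (none was called), the 3 genes most like each factor, marker genes, and paralogs. Cxcr5 and Gzmb were picked with their values in view. The factors, lists and alternatives were chosen with earlier results of these data known. Replicate numbers are those of the titles, though Th2 replicate 3 has the number 4 in its description. Alternatives were leaving out each array, leaving out arrays that stood apart or carried basophil markers, a replicate block, array weights, quantile normalization again, only the compared groups in the fit, a robust trended prior, a filter on low values, and the mean of probe sets. Replicate numbers of the titles were not used as pairs in the main fit. Correlations of same-numbered deviations ran from -0.309 to 0.296, which with so few arrays cannot exclude a pairing. By its description's number, Th2 replicate 3 would match Th17 replicate 4, and their correlation (0.494) was the highest between groups. Whether those samples were paired or shared a batch was not tested.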

Additional observations from a re-analysis of the deposited data

Results flagged for a closer look

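In all, 2 values on the Th17 arrays lay far from the other 3 of their group (Dixon's gap test at 4 arrays, 95% level), among 31 genes examined. Chance gives such a value in about 1 in 20 groups. Lef1 was at 6.0 on Th17 replicate 4 and at 8.40 to 8.70 on the other Th17 arrays. This is 1 of the 3 arrays that stood apart on the first principal component. Nkg7 was at 7.21 on Th17 replicate 1 and at 8.06 to 8.17 on the other Th17 arrays.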

How the results depend on the processing

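None of the 8 factors was called in any comparison under the 19 alternatives (18 for Id3, which the filter on low values leaves out), nor was Bach2 by the probe set shared with its antisense gene, added after seeing the data, as were the list medians without arrays. Counts over all genes moved. Leaving out 1 array at a time gave 0 to 431 genes in Th2 against Th0 (431 without Th2 replicate 1, 1 without Th0 replicate 2 and 0 otherwise), 2 to 36 in Th17 against Th0 and 3 to 298 in Th17 against Th2 (lowest without Th0 replicate 3 and Th2 replicate 2, highest without Th2 replicate 1). Without the 3 arrays apart on the first component, Th2 against Th0 gave 2 and Th17 against Th0 gave 46. Leaving out the arrays with most basophil-marker signal (Th0 replicate 1 and Th17 replicates 2 and 3), the Th17 comparisons gave 3 (Th0) and 6 (Th2), and with array weights 60 and 330. With the replicate block, a pairing by number that was not established, they gave 8 and 11, against 23 and 17 without it. The block, built on the titles' numbers, changed no call of a factor. It turned Lef1 in Th17 against Th0 to 0.23 because it leaves Th17 replicate 4 without a partner.

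Other differences that turned are given next, and the cause was not tested. Without the 3 arrays apart, Th2 against Th0 became -0.65 for Bcl6, 0.59 for Lef1, -0.15 for Bach2, 0.59 for Tox, 0.081 for Satb1, 0.019 for Myb and 0.18 for Ccr7. Lef1 in Th17 against Th0 became 0.23, and Th17 against Th2 became -0.15 for Prdm1, -0.36 for Lef1 and -0.27 for Satb1. Without the basophil-marker arrays Th17 against Th2 became -0.49 for Bcl6 and -0.38 for Lef1. It was -0.25 for Bcl6 with array weights and -0.022 for Prdm1 with values normalized again. Bach2 in Th2 against Th0 was -0.25 by the shared probe set. Leaving out 1 array at a time, Th2 against Th0 ran from -0.077 to 0.93 for Bcl6, -0.16 to 0.40 for Bach2, -0.67 to 0.031 for Id2 and -0.38 to 0.29 for Tox. Lef1 ran from -0.67 to 0.23 in Th17 against Th0. In Th17 against Th2 the ranges were -0.38 to 0.63 for Bcl6, -0.037 to 0.12 for Prdm1, -0.26 to 0.93 for Lef1 and -0.34 to 0.079 for Id3.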
